A study of Cricetulus griseus with 24 samples.

Results

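The genes described here encode proteins that cut introns out of pre-mRNA: the SR proteins, the hnRNP proteins, the Sm core and snRNP-specific proteins, the SF3A and SF3B subunits of the U2 snRNP, and the PRPF proteins. They were chosen by symbol (SRSF and a digit, HNRNP, SNRP, SF3A or SF3B, PRPF and a digit) and by a mean CPM (a count scaled to the size of its library) of at least 1 over all cultures. Of 28037 genes in the table, 61 had such a symbol and 60 passed the level; SRSF12 had 1 count in all cultures together. The 60 are 9 SR proteins, 19 hnRNP proteins, 11 Sm and snRNP proteins, 9 SF3A and SF3B subunits and 12 PRPF proteins, and all 60 passed the filter on low counts in every comparison. No row carried the symbol SRSF2 or SNRPN.

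RNA was sequenced from suspension cultures of 3 Chinese hamster ovary (CHO) lines, the cells most used to make antibodies, at exponential and at stationary phase. A0 is an antibody-producing CHO DG44 line, transfected with a plasmid for the antibody heavy chain and one for the light chain and neomycin resistance. A1 is its higher-producing progeny, amplified by stepwise selection in methotrexate. CHO-S, a separate line that makes no antibody, was the negative control; its sample titles carry the letters NDST, which neither the labels nor the methods explain, so a further property of these cells is not known here. A0 had 4 cultures at each phase, and A1 and CHO-S had 3 at each. Each line was 1 cell line, so a difference between A1 and A0 cannot be told apart from a difference between those particular lines, and CHO-S differs from both in its lineage as well as in production.

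Introns are removed by the spliceosome, which is assembled anew on each intron from small nuclear ribonucleoproteins (snRNPs) and many other proteins. Sm proteins form a ring around the snRNA of most snRNPs, SF3A and SF3B hold the U2 snRNP on the branch point, and PRPF proteins build the tri-snRNP and drive its rearrangements. SR proteins mostly favour the use of nearby exons and hnRNP proteins often oppose it. In producing CHO cells the same machinery handles host transcripts and any intron kept in the antibody transgenes.

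Counts assigned to genes ranged from 1038026 to 14652646 over the 24 libraries, with a median of 12166034.5. CHO-S stationary culture 1 stood apart: it had the lowest total, the next being 6532373, and 32.8% of its reads lay in no annotated gene, against at most 18.4% in any other culture. The 60 genes held 1.93% of its counts, against 1.13% and 1.14% in the other CHO-S stationary cultures, so the counts and named values that rest on CHO-S at stationary phase are given with and without it, apart from those on another scaling. Each exponential A0 culture had a second library, marked RLT for cultures 1 and 2 and Duplicate for 3 and 4, and the libraries of a culture were summed. A0 exponential culture 4 was the lowest of the 4 for 35 of the 60 genes. The mesenchymal genes VIM and LGALS1 were high in all cultures (at least 699 CPM), while the leukocyte gene PTPRC was at most 0.18 CPM. The epithelial genes EPCAM and CDH1 were low but differed between lines. EPCAM was at 1.56 to 3.71 CPM in A0 and A1 and at most 0.21 in CHO-S. CDH1 reached 1.2 CPM in A0 and A1 and at most 0.16 in CHO-S.

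**Figure D1:**
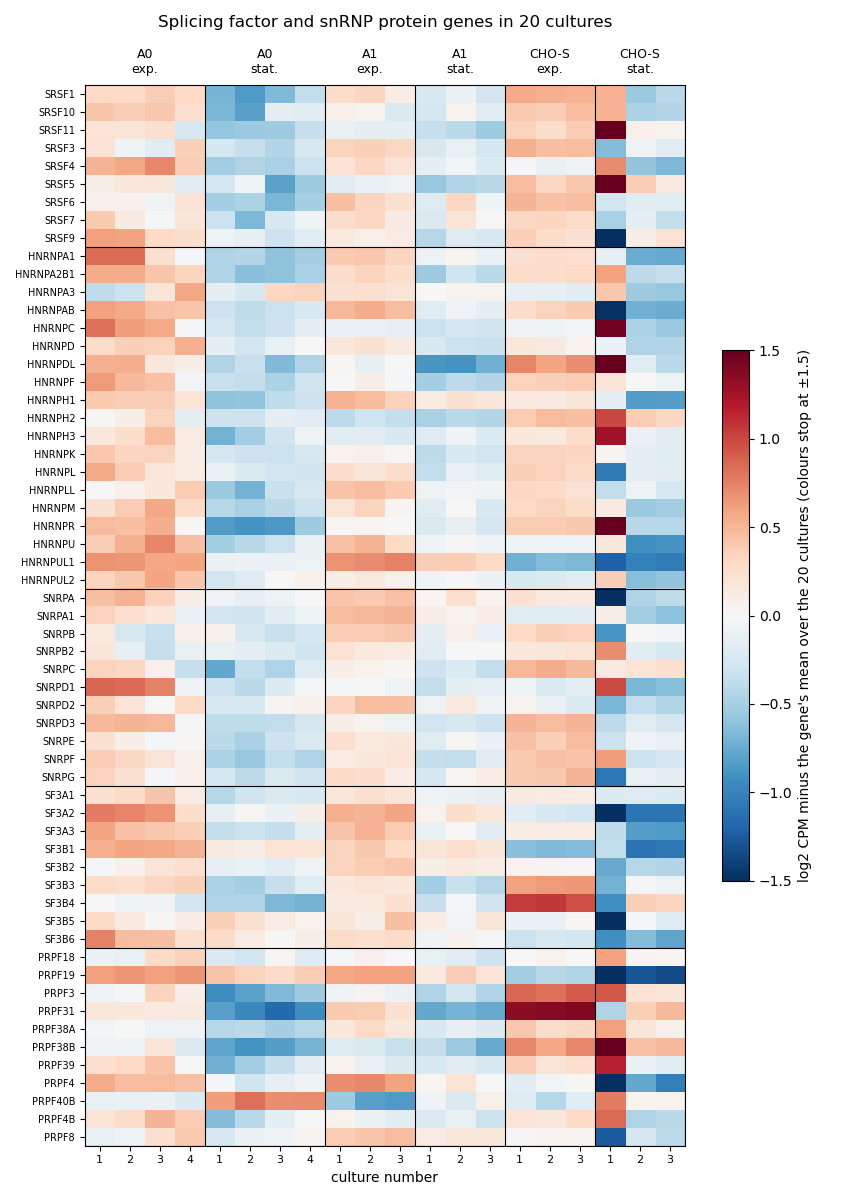
Level of 59 of the 60 genes (rows, by class) in each of 20 cultures (columns, by line and phase), as log2 CPM minus the gene's own mean over the cultures. In all 3 lines the stationary columns are bluer than the exponential ones, apart from CHO-S stationary culture 1, and PRPF40B runs the other way in A0 and A1.

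Stationary against exponential phase. Nearly all of the genes were lower at stationary phase in A0 and A1. In A0, 53 of 60 fell and 1 rose, with a median log2 fold change of -0.62, while over all 20267 genes tested 20.1% fell and 17.7% rose, 37.7% in either direction, and the median was 0.00. In A1, 50 fell and 1 rose, with a median of -0.33; there 17.8% of all genes fell and 15.6% rose, 33.4% in either direction, and the median was 0.03. The genes described here all lie above 30 CPM on average, and among all genes above that level 37.4% fell in A0 and 37.1% in A1, so the count was above that background as well. Together they made up 1.93 ± 0.06% of counts in exponential A0 and 1.27 ± 0.08% in stationary A0 (SD, n = 4), and 1.81 ± 0.04% and 1.46 ± 0.04% in A1 (SD, n = 3). In total RNA from a culture, less of a transcript per cell and fewer cells that make it cannot be told apart.

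All 9 SR proteins fell in A0 and 8 fell in A1. SRSF1, the prototype of the family, lay at 518, 519, 545 and 517 CPM in the 4 exponential A0 cultures and at 259.6, 234, 267 and 328 in the stationary ones (log2 fold change -0.96 ± 0.11, adjusted p = 2.9e-06). The phases did not overlap. In A1 it went from 510.0, 525 and 456 to 358, 398 and 348 CPM (-0.41 ± 0.06, adjusted p = 1.5e-06), again without overlap. SRSF4 fell furthest of the class in A0 (-1.0 ± 0.10, adjusted p = 8.9e-07). SRSF7, which also serves in mRNA export, fell in both lines (-0.49 ± 0.12 in A0 and -0.20 ± 0.08 in A1), and so did SRSF3, the smallest of the family, SRSF5 and SRSF6. SRSF10 was the member that did not pass in A1 (-0.07 ± 0.08, adjusted p = 0.59), having fallen by 0.79 in A0 on the log2 scale.

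Of the hnRNP proteins, 18 of 19 fell in A0 and 16 in A1. HNRNPR, which binds mRNA in nucleus and cytoplasm, had the largest fall of the 60 in A0: 386, 379.8, 408 and 282 CPM at exponential phase and 156, 151, 153 and 193 at stationary phase (-1.17 ± 0.12, adjusted p = 1.8e-06). The lowest exponential culture, number 4, was still above all stationary ones. HNRNPA1, a well known repressor of exon inclusion, lay at 1249.8, 1252, 826 and 684 and 511, 515, 459 and 496 CPM in the same cultures (-1.03 ± 0.16, adjusted p = 8.3e-05). Its spread among exponential A0 cultures was wide, cultures 1 and 2 being well above 3 and 4, but the phases did not overlap. HNRNPA2B1, its close relative, went from 1609 ± 126 to 801 ± 48.5 CPM in A0 (SD, n = 4; -1.02 ± 0.10, adjusted p = 6.3e-07). In A1 it went from 1425 ± 43.3 to 878 ± 74.6 CPM (SD, n = 3; -0.68 ± 0.06, adjusted p = 2.5e-11).

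HNRNPDL and HNRNPAB, both related to the AU-rich element binding protein HNRNPD, were among the 4 largest falls in A1, at -0.78 ± 0.06, adjusted p = 3.3e-11 and -0.61 ± 0.06, adjusted p = 3.3e-10. HNRNPC, HNRNPK and HNRNPU fell in both lines, with log2 fold changes of -0.81 in A0 and -0.17 in A1 for HNRNPC, -0.59 and -0.34 for HNRNPK, and -0.86 and -0.43 for HNRNPU. HNRNPA3 was the hnRNP gene that did not pass in A0 (0.01 ± 0.19, adjusted p = 1.0), with exponential cultures at 600.3, 622, 886 and 1170.0 CPM and stationary cultures at 706, 666, 965 and 979.6. Cultures 3 and 4 were above cultures 1 and 2 at both phases. HNRNPA1 and HNRNPA3 have close relatives and reads that matched several places were not counted, so their counts may be incomplete.

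Of the 11 Sm and snRNP genes, 9 fell in A0 and 10 in A1. SNRPD1, of the Sm ring, lay at 358, 352, 327 and 187 CPM in exponential and 157, 147, 169 and 193 in stationary A0 (-0.89 ± 0.16, adjusted p = 0.00039). Culture 4 alone was at the stationary level, and the phases overlapped. SNRPB, which gives the SmB proteins, had 243, 186, 174 and 232 CPM and 229, 187, 174 and 184 CPM in A0 and did not pass (-0.12 ± 0.12, adjusted p = 0.46), but in A1 it fell from 287, 286 and 291 to 199.6, 232 and 208 CPM (-0.41 ± 0.06, adjusted p = 1.3e-06). SNRPA, the A protein of the U1 snRNP, fell in both lines (-0.44 ± 0.10 and -0.28 ± 0.06). SNRPB2, the U2-B'' protein, did not pass in A0 (-0.11 ± 0.11, adjusted p = 0.48) and fell in A1 (-0.19 ± 0.07, adjusted p = 0.039).

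Of the 9 SF3A and SF3B genes, 8 fell in A0 and 7 in A1. SF3B1, which clamps the branch point, fell in A0 from 439.9, 457, 454 and 432 to 332, 323, 349.9 and 346 CPM (-0.41 ± 0.09, adjusted p = 0.0011), and in A1 its change did not pass (-0.12 ± 0.05, adjusted p = 0.086). SF3A1 fell in both (-0.57 ± 0.10 and -0.28 ± 0.06), as did SF3A2, the subunit that bridges SF3A to the rest of the U2 snRNP (-0.66 ± 0.11 and -0.36 ± 0.06). SF3B5, a small SF3B subunit, passed in neither (0.04 ± 0.10, adjusted p = 0.82 in A0 and -0.15 ± 0.09, adjusted p = 0.22 in A1).

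Among the 12 PRPF genes, 9 fell and 1 rose in each line. PRPF31, which joins the U4/U6 and U5 snRNPs in the tri-snRNP, had the largest fall of the 60 in A1. It lay at 61.0, 60.6 and 54.7 CPM at exponential and 27.3, 28.8 and 27.5 at stationary phase (-1.05 ± 0.08, adjusted p = 5.1e-12), and in A0 at 52.2, 52.0, 51.7 and 51.1 and 26.4, 23.8, 20.8 and 24.4 (-1.13 ± 0.10, adjusted p = 3.2e-07). In both lines every stationary culture lay far below every exponential one.

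PRPF40B was the riser in both lines. It is a homologue of the yeast U1 snRNP protein Prp40. In A0 it lay at 29.7, 29.9, 30.1 and 27.8 CPM at exponential and 49.5, 56.9, 51.9 and 52.7 at stationary phase (0.83 ± 0.09, adjusted p = 3.2e-06). In A1 it lay lower at both, at 22.2, 18.3 and 17.8 and 31.0, 27.7 and 33.8 CPM (0.69 ± 0.10, adjusted p = 3.7e-06). PRPF8, the scaffold of the U5 snRNP, fell in A1 (-0.25 ± 0.06, adjusted p = 0.0011) and did not pass in A0 (-0.22 ± 0.12, adjusted p = 0.16). PRPF18, a factor of the second step, did not pass in A0 (-0.30 ± 0.12, adjusted p = 0.06) but did with the culture number as a block (adjusted p = 0.009), which was the one call of the A0 phase comparison that the block changed.

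In CHO-S, 15 of 60 genes fell and 0 rose with all 3 stationary cultures (median -0.39), where 6.48% of all genes fell and 6.81% rose, 13.3% in either direction. Without stationary culture 1, 55 fell and 1 rose (median -0.50), where 24.7% of all genes fell and 23.1% rose, 47.7% in either direction. HNRNPAB fell from 318, 333 and 345 CPM to 159 and 156 in cultures 2 and 3 and to 93.9 in culture 1 (-1.26 ± 0.20, adjusted p = 0.0095, and -1.07 ± 0.05, adjusted p = 9.2e-36 without culture 1). PRPF19, the ubiquitin ligase of the complex named after it, fell from 221, 238 and 233 to 131 and 125 CPM, with 56.8 in culture 1 (-1.11 ± 0.27, adjusted p = 0.038, and -0.84 ± 0.05, adjusted p = 1.2e-27 without it). PRPF31 and SF3A2 were the other genes of the 4 largest falls (-1.12 ± 0.21 and -0.98 ± 0.16; -0.95 and -0.87 without culture 1). The riser without culture 1 was PRPF40B (0.32 ± 0.09, adjusted p = 0.0011). With culture 1 kept, leaving out stationary culture 2 or 3 left 1 or 3 genes past the threshold, and leaving out any exponential culture left 0 in edgeR, with 20 to 24 at an unadjusted p under 0.05. DESeq2 on all cultures called 23.

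Culture 1 differed from its group in both directions. PRPF38B was at 1163 CPM in it and at 227 and 234 in the others. SRSF11 was at 811 against 192 and 189 CPM, and HNRNPR at 987 against 209 and 208. SNRPA was at 15.5 against 60.2 and 63.1 CPM and PRPF4 at 16.5 against 31.4 and 26.1. For these genes a CHO-S stationary mean over 3 cultures describes no culture of the group. Of the 60, 15 fell past the threshold in all 3 lines with culture 1 kept and 44 with it left out, among 45 that fell in both A0 and A1. Of all genes 20.1% fell in A0, 17.8% in A1 and 6.48% in CHO-S, or 24.7% in CHO-S without culture 1. The share of all genes that fell in several lines at once was not counted, so these joint counts have no background beside them.

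**Figure D2:**
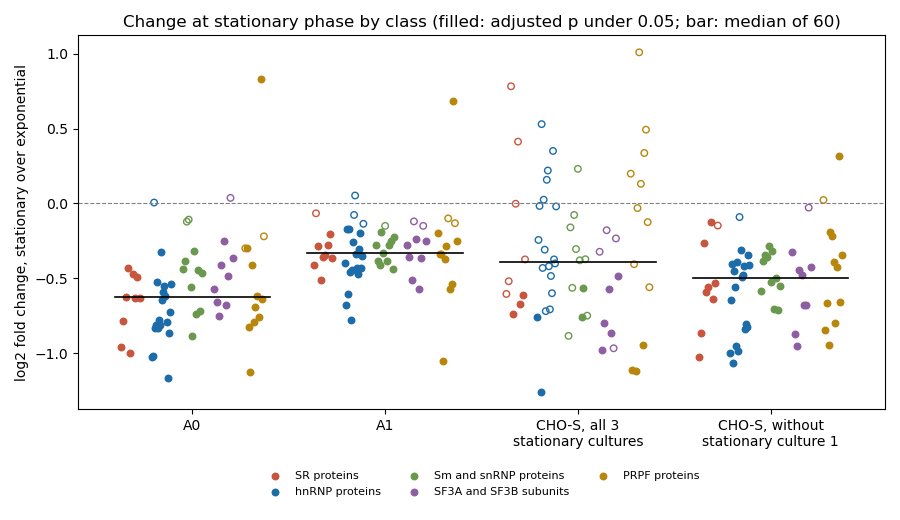
Log2 fold change of stationary over exponential phase for the 60 genes by class, in A0, in A1 and in CHO-S with and without stationary culture 1; filled points passed the adjusted threshold of 0.05 and the bar is the median over the 60. The medians are -0.62, -0.33, -0.39 and -0.50, and the filled point above 0 in A0, A1 and CHO-S without culture 1 is PRPF40B.

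A1 against A0. The comparison of the amplified progeny with its parent is the one the study was built on. At exponential phase 19 of the 60 genes differed, 4 higher and 15 lower in A1, with a median of -0.08; 25.9% of all genes differed, 12% higher and 13.8% lower. Among genes above 30 CPM 39.5% differed, so the total was no larger than that background, while 21.7% of such genes were lower in A1. At stationary phase 23 differed, 20 higher and 3 lower, with a median of 0.17; 33.7% of all genes differed, 16% higher and 17.7% lower, and of those above 30 CPM 51.2% differed, 24.5% being higher. None of the 60 reached 2-fold at either phase. The counts moved with single cultures, and the share of all genes that differed without each of them is not given here. At exponential phase 10 genes passed without A0 culture 2, 12 without A0 culture 3 and 32 (10 higher, 22 lower) without A0 culture 4, and 9, 9 and 5 passed without A1 culture 1, 2 and 3. At stationary phase 12 passed without A1 culture 2 and 15 without A1 culture 3.

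The 15 genes lower in A1 at exponential phase were 7 hnRNP, 3 SR, 2 Sm and snRNP and 3 PRPF genes. SNRPD1 had the largest fold change, from 358, 352, 327 and 187 CPM in A0 to 193, 194 and 186 in A1 (-0.68 ± 0.17, adjusted p = 0.0073), but A0 culture 4 lay inside the A1 range. Both libraries of that culture were low, at 199 and 186 CPM, against 341 and 358 in culture 1. Without culture 4 the log2 fold change was -0.86 ± 0.07, adjusted p = 1e-05. HNRNPC, which coats uridine tracts in introns, lay at 1097, 959, 917 and 614 CPM in A0 and 583, 581 and 571 in A1 (-0.64 ± 0.15, adjusted p = 0.0049). The lines did not overlap, with A0 culture 4 nearest to A1.

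HNRNPH2 and HNRNPH3, which bind runs of guanines, were lower in A1 (-0.43 ± 0.11, adjusted p = 0.0067 and -0.44 ± 0.10, adjusted p = 0.0047). HNRNPDL was lower as well, at 309, 310.0, 241 and 227 CPM in A0 and 217, 195 and 213 in A1 (-0.39 ± 0.12, adjusted p = 0.025); from the plain A0 libraries alone it did not pass (-0.23 ± 0.12, adjusted p = 0.16). SRSF10, which can act as a repressor of splicing, was at 99.8, 96.6, 98.8 and 89.4 CPM in A0 and 79.0, 77.4 and 64.2 in A1 (-0.39 ± 0.10, adjusted p = 0.0077), without overlap. SRSF9 (-0.34 ± 0.11, adjusted p = 0.032) and PRPF4B, a kinase that phosphorylates tri-snRNP proteins (-0.41 ± 0.10, adjusted p = 0.0057), were lower without overlap too. PRPF40B, the riser at stationary phase, was lower in A1 at both phases, at -0.60 ± 0.11, adjusted p = 0.00097 at exponential and -0.79 ± 0.10, adjusted p = 2.9e-05 at stationary phase.

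The 4 genes higher in A1 at exponential phase were SNRPB, SNRPA1, SF3B4 and PRPF38A. SNRPB lay at 243, 186, 174 and 232 CPM in A0 and at 287, 286 and 291 in A1 (0.46 ± 0.11, adjusted p = 0.007). The A1 cultures lay close together and above all 4 A0 cultures, which were themselves spread. In A0 culture 1 the 2 libraries differed, with 182 and 284 CPM in the plain and the RLT library. SNRPA1, the U2-A' protein, went from 129 ± 16.4 (SD, n = 4) to 161 ± 1.98 CPM (SD, n = 3; 0.32 ± 0.10, adjusted p = 0.033). SF3B4, an SF3B subunit that contacts the branch region, and PRPF38A, which enters with the tri-snRNP, were higher by less (0.27 ± 0.09, adjusted p = 0.037 and 0.24 ± 0.08, adjusted p = 0.046).

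The 20 genes higher in A1 at stationary phase were 7 hnRNP, 5 PRPF, 3 SR, 3 Sm and snRNP and 2 SF3A or SF3B genes. HNRNPH1, the main G-run binding protein of the H group, was at 249.7, 252, 292 and 307 CPM in A0 and 413, 445 and 426 in A1 (0.63 ± 0.08, adjusted p = 4.2e-05). The lines did not overlap. HNRNPR was at 156, 151, 153 and 193 and 240.2, 256 and 235 CPM (0.57 ± 0.09, adjusted p = 0.00016), SRSF6 at 182, 185, 160.0 and 182 and 226, 319.6 and 247 (0.57 ± 0.10, adjusted p = 0.00055), and SRSF1 at 259.6, 234, 267 and 328 and 358, 398 and 348 (0.43 ± 0.10, adjusted p = 0.0032). In each, all A1 cultures were above all A0 cultures, the highest A0 culture being number 4 for HNRNPR and SRSF1. HNRNPA1 was higher in A1 (0.45 ± 0.07, adjusted p = 0.00014), and so were HNRNPUL1, a relative of HNRNPU (0.42 ± 0.06, adjusted p = 9.4e-05), HNRNPLL, known from lymphocyte splicing (0.38 ± 0.10, adjusted p = 0.0091), and SF3B4 (0.35 ± 0.10, adjusted p = 0.011).

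The 3 genes lower in A1 at stationary phase were PRPF40B, HNRNPDL (-0.37 ± 0.09, adjusted p = 0.0041) and HNRNPH2 (-0.23 ± 0.07, adjusted p = 0.024), and these were lower in A1 at exponential phase too. Of 8 genes called at both phases, 6 kept their direction: SF3B4, SNRPA1 and PRPF38A were higher in A1 at both and HNRNPDL, HNRNPH2 and PRPF40B lower at both. HNRNPR and SRSF4 turned, from lower in A1 at exponential phase (-0.37 and -0.30) to higher at stationary phase (0.57 and 0.30). For HNRNPR at exponential phase A0 culture 4 (281.7 CPM) lay inside the A1 range (277.9 to 285.3 CPM), so the lines overlapped there. Of the well known members, HNRNPK, HNRNPA2B1, SRSF3, SRSF5, SRSF7, SNRPA, SF3A1, SF3B1, PRPF19 and PRPF31 passed at neither phase. Without A0 exponential culture 4, 5 of these 10 passed at exponential phase: SRSF3 was higher in A1 (0.33), and HNRNPK (-0.30), SRSF5 (-0.25), SF3B1 (-0.23) and HNRNPA2B1 (-0.22) were lower. From plain A0 libraries SRSF3 passed as well (0.34 ± 0.10, adjusted p = 0.018). HNRNPU (0.28 ± 0.09) and PRPF8 (0.22 ± 0.08) were higher in A1 at stationary phase.

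**Figure D3:**
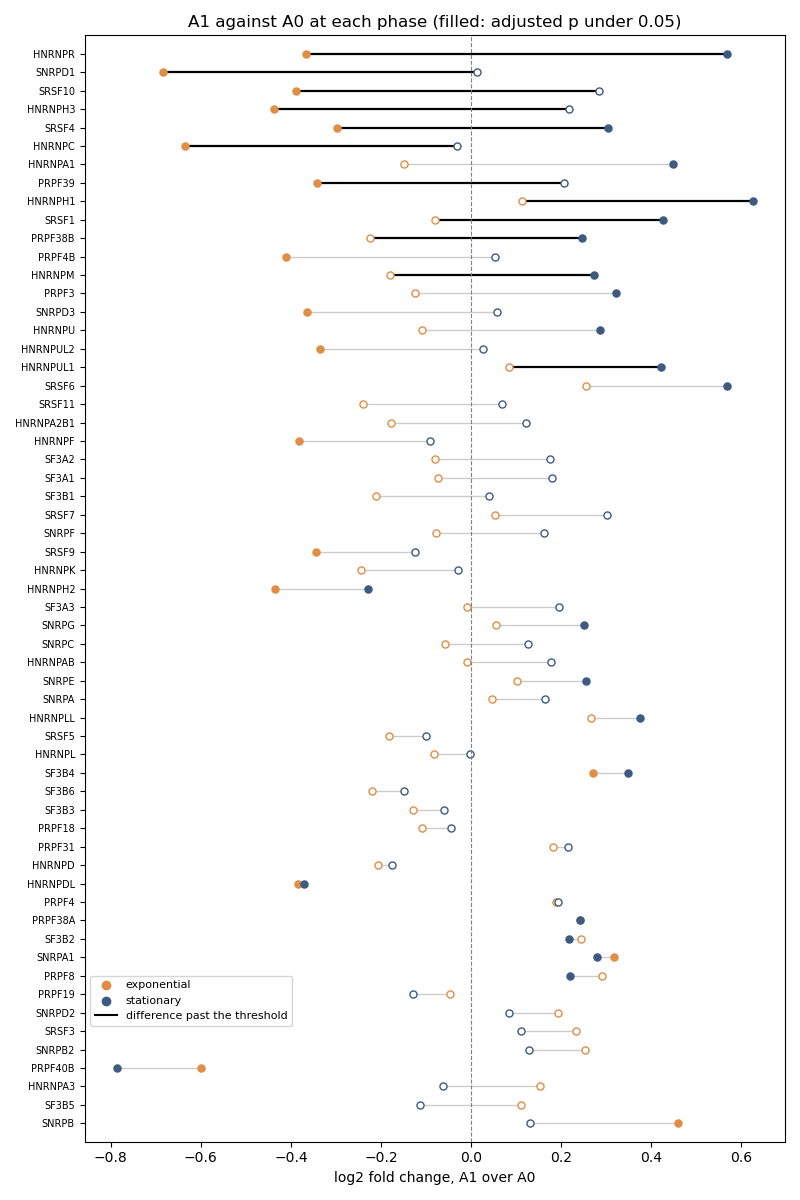
Log2 fold change of A1 over A0 for 59 of the 60 genes, at exponential (orange) and stationary phase (blue), ordered by the difference between phases. Filled points passed the adjusted threshold of 0.05 and a black line marks the 12 genes whose difference between phases passed; in all 12 the stationary value lies to the right.

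Difference between the lines in the phase change. Whether A1 and A0 changed differently from exponential to stationary phase was tested as an interaction. It passed for 12 of the 60 genes, and in all 12 the value was above 0, the change in A1 lying above that in A0. With all 6 groups in 1 edgeR fit 0 of the 60 passed (11 at an unadjusted p under 0.05), and with each culture as a block 20 did, 19 above 0 and 1 below. Over all genes 8.94% passed, 5.04% above 0 and 3.9% below, and among those above 30 CPM 17.3% and 9.84%. They were 6 hnRNP, 3 SR, 2 PRPF and 1 Sm gene: HNRNPR, SNRPD1, SRSF10, HNRNPH3, SRSF4, HNRNPC, PRPF39, HNRNPH1, SRSF1, PRPF38B, HNRNPM and HNRNPUL1. All 12 fell in A0, and 8 of them fell in A1 too; HNRNPH3, PRPF39, SNRPD1 and SRSF10 did not pass in A1. By value 48 of the 60 genes had an interaction above 0, with a median of 0.21 against 0.02 for all genes.

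HNRNPR had the largest interaction (0.94 ± 0.15, adjusted p = 0.0004). Its A1 cultures lay at 284, 285 and 278 CPM at exponential and 240.2, 256 and 235 at stationary phase (-0.20 ± 0.06), a small fall beside that in A0 (-1.17 ± 0.12). SRSF4 fell in A0 from 233, 243, 268 and 210.1 to 114, 119.8, 116 and 130.3 CPM and in A1 from 190.4, 202 and 190.0 to 148, 159 and 142 (interaction 0.60 ± 0.12, adjusted p = 0.0027). For both genes the A1 means lay between the means of the A0 phases. SRSF10 was at 46.7, 42.5, 68.1 and 67.2 CPM in stationary A0 and 62.3, 77.8 and 66.4 in stationary A1, where the lines overlapped (interaction 0.67 ± 0.18, adjusted p = 0.022), and HNRNPH3 at 35.6, 40.7, 47.3 and 55.3 and 50.9, 56.0 and 50.6 (interaction 0.66 ± 0.16, adjusted p = 0.013). Within stationary A0, cultures 3 and 4 were above cultures 1 and 2 for both genes.

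SNRPD1 (0.70 ± 0.21, adjusted p = 0.037) and HNRNPC (0.60 ± 0.17, adjusted p = 0.029) did not differ past the threshold between A1 and A0 at stationary phase. There A1 and A0 lay at 153, 176 and 179 and 157, 147, 169 and 193 CPM for SNRPD1, overlapping, and the log2 fold change of HNRNPC was -0.03 ± 0.07. Without A0 exponential culture 4, whose levels of both were near those of A1, the interaction was 0.87 for SNRPD1 and 0.75 for HNRNPC. In that fit 20 genes passed, all above 0. The share of all genes that passed in it is not given here, so a count of 20 beside 12 is no result about these genes in particular. The count of 12 also moved with other single cultures. It was 3 without A1 stationary culture 2, 4 without A1 exponential culture 3, 6 without A0 exponential culture 2 or A0 stationary culture 2, and 7 without A0 stationary culture 1, A1 stationary culture 1, or A1 exponential culture 1 or 2. SNRPB had the lowest value (-0.33 ± 0.16, adjusted p = 0.22) and did not pass.

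**Figure D4:**
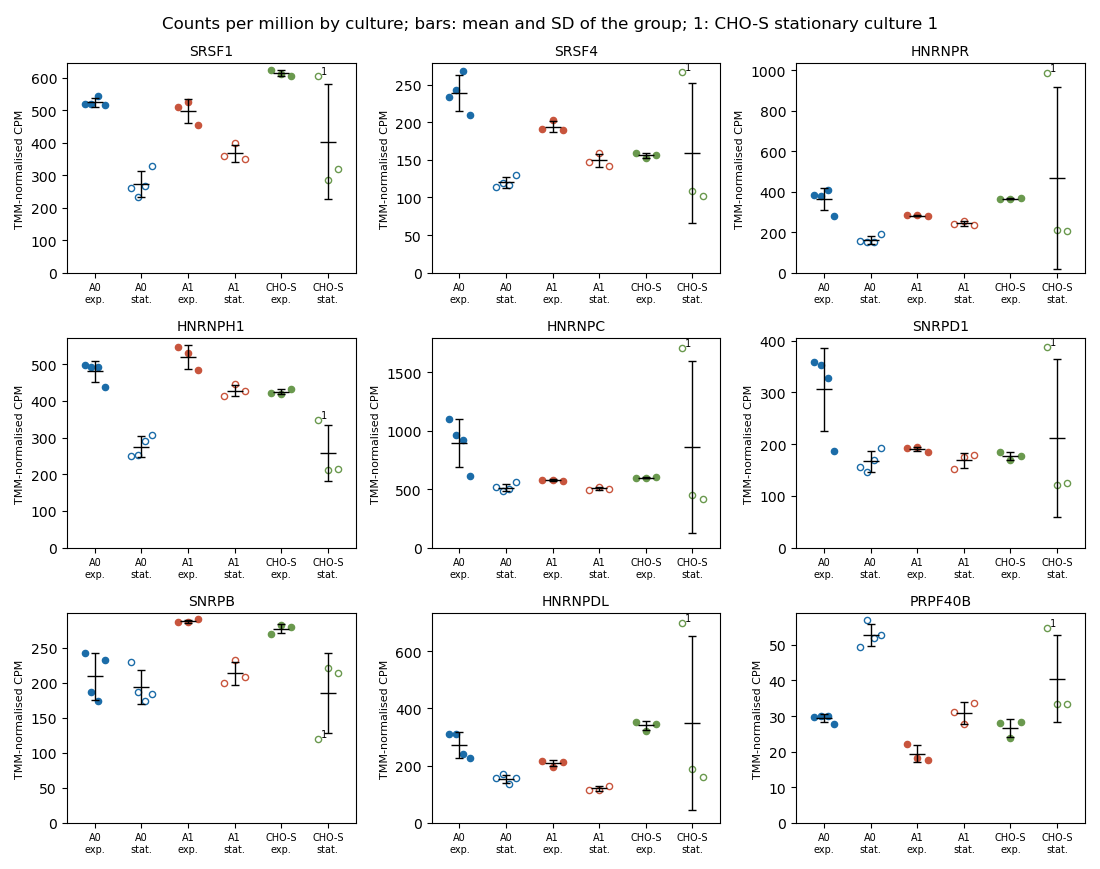
TMM-normalised CPM by culture for 9 genes, filled at exponential and open at stationary phase, with the mean and SD of each group; the point marked 1 is CHO-S stationary culture 1. A0 (blue) falls further than A1 (red) for HNRNPR, SRSF4 and HNRNPH1, A0 exponential culture 4 sits low for SNRPD1 and HNRNPC, and PRPF40B rises at stationary phase in both.

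A0 and A1 against CHO-S. The comparisons of A0 and of A1 with CHO-S share the CHO-S cultures, so their values are given side by side. At exponential phase 31 of the 60 genes differed between A0 and CHO-S, 15 higher and 16 lower in A0, where 49.5% of all genes differed, 27.6% higher and 21.9% lower. Between A1 and CHO-S 49 differed, 22 higher and 27 lower in A1, where 57.2% of all genes differed, 30% higher and 27.1% lower. Among genes above 30 CPM the shares were 66.9% and 79.3%, so the number of differences was near or below that background. Of the called genes 5 reached 2-fold for A0 and 3 for A1.

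HNRNPUL1 had the largest rise in both: 336, 352 and 347 CPM in CHO-S, 886, 876, 826 and 834 in A0 and 886, 905 and 929 in A1 (1.32 ± 0.08, adjusted p = 7.9e-09 for A0 and 1.39 ± 0.04, adjusted p = 2.1e-18 for A1). The lowest culture of either producing line was more than 2-fold above the highest of CHO-S. PRPF19 lay at 221, 238 and 233 CPM in CHO-S, 488, 502, 489 and 505 in A0 and 476, 483 and 483 in A1 (1.11 ± 0.08 and 1.05 ± 0.04). SF3B1 lay at 197, 192 and 194 CPM in CHO-S, 439.9, 457, 454 and 432 in A0 and 381, 402 and 372 in A1 (1.21 ± 0.08 and 0.98 ± 0.04). SF3A2 lay at 120.4, 115 and 110.4 CPM in CHO-S, 229.8, 223, 215 and 161 in A0 and 194, 192 and 202 in A1 (0.86 ± 0.12 and 0.76 ± 0.05). For none of these did a CHO-S culture reach A0 or A1.

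Lower in both producing lines were PRPF31, SF3B4, PRPF3 and PRPF38B. PRPF31 was at 118, 119.6 and 121 CPM in CHO-S, 52.2, 52.0, 51.7 and 51.1 in A0 and 61.0, 60.6 and 54.7 in A1 (-1.20 ± 0.08 and -1.03 ± 0.06). SF3B4 was at 274, 277 and 260.0 CPM in CHO-S, 132, 126, 128 and 110.0 in A0 and 146, 147 and 156 in A1 (-1.11 ± 0.09 and -0.86 ± 0.05). PRPF3, which sits with PRPF4 and PRPF31 on the U4/U6 snRNP, was lower (-0.77 ± 0.10 and -0.91 ± 0.05), whereas PRPF4 was higher (0.56 ± 0.09 and 0.73 ± 0.06). Members of 1 particle therefore differed from CHO-S in opposite directions, as did SF3B1 and SF3B4 of the SF3B complex. PRPF38B, a relative of PRPF38A, was lower (-0.69 ± 0.10 and -0.93 ± 0.05). In all, 12 genes were higher and 15 lower in both A0 and A1 than in CHO-S, and 0 were called in opposite directions. The share of all genes called in both comparisons was not counted. Both use the same CHO-S cultures and A1 derives from A0, so agreement in direction is partly built in.

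By class, 7 of 9 SR proteins were lower in A1 than in CHO-S at exponential phase and 1 was higher, SRSF4 (0.31 ± 0.04, adjusted p = 2.4e-06); in A0 4 were lower and 1 higher. Of the 9 SF3A and SF3B genes 6 were higher and 2 lower in A1, and 4 and 2 in A0. Of the Sm and snRNP genes 3 were higher and 5 lower in A1, and 3 and 4 in A0, and of the hnRNP genes 8 were higher and 6 lower in A1, and 5 and 2 in A0. Beside these small counts, 30% of all genes were higher and 27.1% lower in A1, and 27.6% and 21.9% in A0. SNRPD1 was higher in A0 than in CHO-S (0.80 ± 0.17, adjusted p = 0.0014) and did not pass in A1 (0.10 ± 0.05, adjusted p = 0.073), and HNRNPC followed the same course (0.60 ± 0.15 and -0.05 ± 0.04).

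At stationary phase with all CHO-S cultures, 19 genes differed for A0 (8 higher and 11 lower, where 40% of all genes differed, 20.7% higher and 19.3% lower). For A1 19 differed too (11 higher and 8 lower, where 34.8% of all genes did, 18.2% higher and 16.6% lower). On total counts alone the splits were 11 higher and 9 lower, and 14 higher and 5 lower, with the median of all genes shifted by 0.11 and 0.16. Without CHO-S culture 1 they were 37 (22 higher, 15 lower) and 43 (28 higher, 15 lower), where 51.8% of all genes differed for A0 (28% higher, 23.8% lower) and 57.4% for A1 (29.9% higher, 27.5% lower). With culture 1 kept, leaving out any A1 stationary culture left 8 genes for A1. With all cultures PRPF19, SF3A2 and HNRNPUL1 were the highest above CHO-S, while without culture 1 SF3B1 lay above SF3A2 in both lines. PRPF19 was at 428, 404, 389 and 409 CPM in A0 and 351, 411 and 364 in A1, while CHO-S cultures 2 and 3 had 131 and 125 and culture 1 had 56.8 (1.92 ± 0.25 and 1.80 ± 0.28; 1.69 and 1.53 without culture 1). SF3A2 was 1.17 ± 0.16 for A0 and 1.35 ± 0.17 for A1, and 1.09 and 1.24 without culture 1. For HNRNPUL1 the values were 0.98 ± 0.13 and 1.41 ± 0.13, and 0.96 and 1.35 without culture 1. PRPF4 was among the 4 largest for A1 (1.08 ± 0.20, adjusted p = 0.0041; 0.93 ± 0.10, adjusted p = 1.7e-14 without culture 1) and SF3B1 among those for A0 (0.97 ± 0.20, adjusted p = 0.0028; 1.26 ± 0.08, adjusted p = 1.1e-07 without it). SF3B1 for A1 was 1.27 without culture 1.

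The falls against CHO-S at stationary phase leaned on culture 1 in size. PRPF38B was -2.50 ± 0.50 for A0 and -2.25 ± 0.61 for A1, and -1.25 ± 0.08, adjusted p = 9.7e-08 and -1.04 ± 0.07, adjusted p = 2.1e-23 without culture 1. SRSF11 and HNRNPR against A0 went from -1.62 and -1.52 to -0.55 and -0.34. HNRNPDL and SRSF5 against A1 went from -1.55 and -1.30 to -0.57 and -0.77, and HNRNPH2 from -1.06 to -0.81. All of these stayed past the threshold without culture 1, at adjusted p of 0.00019, 0.016, 3.4e-11, 5.1e-18 and 1.1e-19. PRPF31 kept its size, at -1.23 with culture 1 and -1.37 without it for A0.

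The phase change was also compared with that of CHO-S. With all cultures 1 gene passed for A0, PRPF38B (-1.76 ± 0.51, adjusted p = 0.032), and 1 for A1, SF3A2 (0.59 ± 0.17, adjusted p = 0.042), where 10.3% of all genes passed for A0 (3.78% above and 6.57% below 0) and 7.6% for A1 (3.83% above and 3.77% below). Without CHO-S stationary culture 1, 5 passed for A0 (PRPF19 and PRPF40B above 0, and PRPF38B, SRSF4 and HNRNPUL1 below) and 30 for A1, 29 of them above 0. Of all genes 17.2% then passed for A0 (8.43% above and 8.75% below 0) and 25.4% for A1 (13% above and 12.4% below). PRPF38B was then -0.53 ± 0.14, adjusted p = 0.0085 and SF3A2 0.49 ± 0.09, adjusted p = 6.2e-06. SRSF10 (0.78 ± 0.10, adjusted p = 6.3e-09), HNRNPH1 (0.71 ± 0.08, adjusted p = 7.1e-12), SRSF1 (0.59 ± 0.08, adjusted p = 6.1e-09) and HNRNPR (0.59 ± 0.08, adjusted p = 1.8e-09) were among the 29, and the same genes are among the 12 of the A1 and A0 comparison, which shares the A1 cultures. The test then rests on 2 CHO-S stationary cultures, and the names given here for it were picked after their values were seen.

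**Figure D5:**
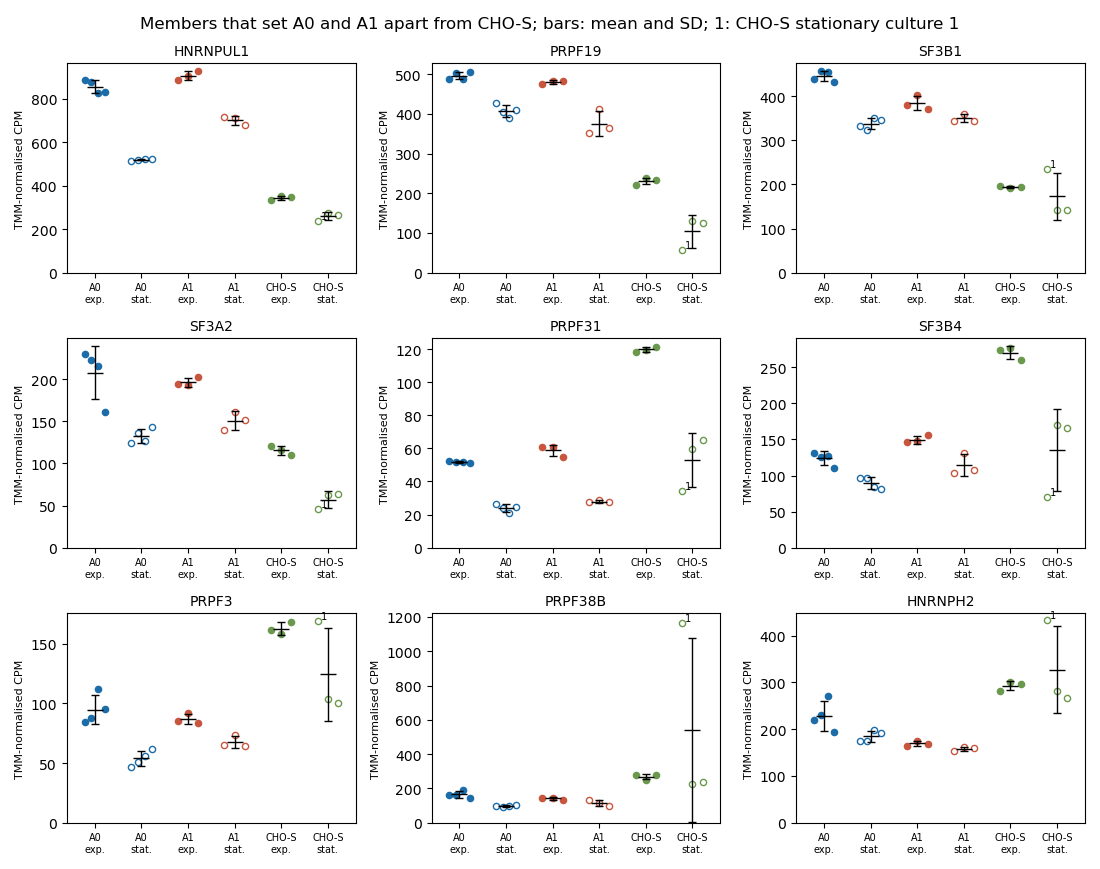
TMM-normalised CPM by culture for 9 genes in A0 (blue), A1 (red) and CHO-S (green), filled at exponential and open at stationary phase, with the mean and SD of each group. At exponential phase HNRNPUL1, PRPF19, SF3B1 and SF3A2 lie higher in A0 and A1 and the other 5 lie lower, and CHO-S stationary culture 1, marked 1, is far from cultures 2 and 3 for PRPF38B.

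Range over the groups. Group means of PRPF38B spanned 2.49 on the log2 scale over the 6 groups (1.48 without CHO-S stationary culture 1), the widest of the 60. PRPF31 spanned 2.33, from 23.9 ± 2.32 CPM in stationary A0 (SD, n = 4) to 119.8 ± 1.54 in exponential CHO-S (SD, n = 3), with or without that culture. PRPF19, SF3A2 and HNRNPUL1 followed at 2.25, 1.86 and 1.80, or 1.95, 1.72 and 1.75 without it. At the other end SNRPB2, HNRNPA3, PRPF18, SF3A1 and PRPF4B spanned 0.36, 0.38, 0.44, 0.56 and 0.63, or 0.37, 0.77, 0.32, 0.56 and 0.78 without that culture. For SNRPB2 the groups ran from 48.3 ± 2.81 CPM in stationary A0 (SD, n = 4) to 62.1 ± 0.908 in exponential CHO-S (SD, n = 3). CPM is not corrected for gene length, so levels are compared within a gene only.

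Other spliceosome genes. Of 153 further genes listed by complex, 144 were in the table. At stationary phase 86 of 144 fell and 8 rose in A0 (median -0.36), and 75 of 143 fell and 12 rose in A1 (median -0.21), where 20.1% of all genes fell and 17.7% rose in A0, and 17.8% and 15.6% in A1. In CHO-S 25 of 143 fell and 0 rose, and without stationary culture 1 106 fell and 8 rose (median -0.34), where 6.48% and 24.7% of all genes fell. The LSm ring, which binds the U6 snRNA, fell in 7 of 8 genes in each of A0 and A1, with medians of -0.87 and -0.40. U2AF and other early acceptor-site factors fell in 9 of 11 genes in A0 (0 rose) and 8 in A1 (1 rose), and further SR-rich and regulatory RNA-binding proteins in 27 of 41 (0 rose) and 25 of 40 (2 rose). Helicases, step factors and Prp19 complex genes had 14 of 30 lower and 3 higher in A0, and 14 lower and 2 higher in A1. SMN complex and assembly genes gave 5 of 14 lower and 1 higher in each of A0 and A1. Exon junction complex genes gave 6 of 10 lower in each of A0 and A1 and 1 higher in A0. The other snRNP proteins gave 12 of 22 lower and 2 higher in A0 and 9 lower and 3 higher in A1. Between A1 and A0, 19 of 143 were higher and 34 lower in A1 at exponential phase, and 35 of 144 were higher and 27 lower at stationary phase. These were 37.1% and 43.1% of the lists, against 25.9% and 33.7% of all genes and 39.5% and 51.2% of those above 30 CPM. The interaction passed for 24 of them, 17 above 0 and 7 below, which is 16.7% of the lists, against 8.94% of all genes and 17.3% of those above 30 CPM. The lists were not held to that level and include genes below it, such as SRPK3 (at most 0.22 CPM in any culture). Their shares and those of genes above 30 CPM are therefore not like for like.

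The activity and place of SR proteins depend on their phosphorylation, and the kinases that carry it out formed 1 of the lists. Of 8, 6 fell and 1 rose in A0 at stationary phase, while in A1 1 fell and 3 rose, 20.1% of all genes having fallen and 17.7% risen in A0, and 17.8% and 15.6% in A1. SRPK3, 1 of the 8, had at most 0.22 CPM in any culture, so it had little room to pass. In CHO-S 0 of the 8 passed in edgeR (3 at an unadjusted p under 0.05), and without stationary culture 1 4 fell and 1 rose. CLK1, CLK2 and CLK4, nuclear kinases of the CDC-like family, are named here after their values were seen. CLK1 lay at 39.1, 37.8, 38.9 and 46.6 CPM in exponential A0 and 22.3, 20.7, 39.7 and 31.5 in stationary A0, overlapping (-0.52 ± 0.16, adjusted p = 0.02). In A1 it lay at 29.0, 23.9 and 27.6 and 37.3, 39.9 and 35.0 (0.50 ± 0.09, adjusted p = 5.4e-05), the stationary cultures being higher without overlap. The interaction was 0.97 ± 0.22, adjusted p = 0.0059 for CLK1, 0.93 ± 0.18, adjusted p = 0.0024 for CLK2 and 0.87 ± 0.19, adjusted p = 0.0048 for CLK4. At exponential phase CLK1, CLK2 and CLK4 had log2 fold changes of -0.60, -0.66 and -0.47 in A1 over A0, and each passed. SRPK1, the cytoplasmic SR protein kinase, fell in both lines (-0.45 ± 0.11, adjusted p = 0.0036 in A0 and -0.29 ± 0.05, adjusted p = 7.3e-05 in A1).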

How the data were processed

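Poly(A) RNA of 20 cultures was sequenced as 24 stranded libraries. The deposited values were raw counts per gene: the authors aligned reads with STAR 2.5.4b to a Chinese hamster assembly named C_griseus_v1.0 and counted them with HTSeq-count 0.7.2, as the submitters' processing notes name them. The counting's strand setting is not given in the sources used here, so overlapping genes are uncertain. Lines that name no gene were left out (2.31 to 11.5% of reads unaligned, 11.9 to 32.8% in no gene, 12.7 to 14.8% matching several places). Intervals of log2 values are standard errors worked back from the edgeR test: the size of the log2 value over the square root of its F statistic. The p-values measure the spread between these cultures, which nothing in the labels describes as independent thaws.

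The second libraries of exponential A0 were summed with the first, culture by culture. Only the groups of a comparison entered its fit in edgeR 4.0.16 (R 4.3.3): genes counted in 2 or more cultures, TMM scaling, quasi-likelihood test, Benjamini-Hochberg adjustment over all genes, threshold 0.05. Levels are TMM-normalised CPM. The fit was tested on simulated data with a fixed spread and no culture set apart from its group. That test therefore does not cover levels such as those of CHO-S stationary culture 1 or the splits among A0 cultures. Alternatives were DESeq2 1.42.0 (the tool of the study), RLE or total-count scaling, another filter, all 6 groups in 1 fit, the replicate number as a block, plain A0 libraries, a floor of 10 CPM and leaving out each culture. Genes were named if well known, if among the largest called changes of a comparison, or if widest or narrowest in range. In comparisons of 2 groups the largest changes were taken only from genes whose groups did not overlap. Members, lists and tests were chosen with earlier results of these data known. Added after these values were seen were the block by culture, pairs of choices and the list counts without CHO-S stationary culture 1, and the background above 30 CPM.

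In A0 across phases same-numbered cultures deviated together (r between 0.18 and 0.37 over genes in 4 of 4 pairs). Cultures 1 with 2 and 3 with 4 did so too (r between 0.175 and 0.287). Pairs across these sets had r between -0.328 and -0.172. A pairing by number therefore cannot be told apart from a split of cultures 1 and 2 from 3 and 4. The labels do not explain the numbers. The values of 1 member, which the counts include, are not reported here.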

Additional observations from a re-analysis of the deposited data

Results flagged for a closer look

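In 4 cultures of A0, a single culture lay far from the others for 9 of 120 gene and phase groups, as measured by its gap to the nearest culture over the whole range. Chance alone flags about 1 group in 20, which here is 6. At exponential phase culture 4 was the one apart for SNRPD3 of the Sm ring (0.931), HNRNPH1 (0.899), SRSF11 (0.875) and PRPF40B (0.853), and culture 3 for SRSF1 (0.946). At stationary phase culture 4 was apart for SF3A3 (0.873), HNRNPR (0.864) and SNRPD3 (0.847), and culture 3 for SRSF6 (0.87). For SRSF1 the 4 exponential cultures spanned only 517 to 545 CPM.

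The change from exponential to stationary phase differed between A1 and A0, by the interaction test, for 12 genes. Its log2 values were 0.94 for HNRNPR, 0.70 for SNRPD1, 0.67 for SRSF10, 0.66 for HNRNPH3, 0.60 for SRSF4, 0.60 for HNRNPC and 0.55 for PRPF39. They were 0.51 for HNRNPH1, 0.51 for SRSF1, 0.47 for PRPF38B, 0.45 for HNRNPM and 0.34 for HNRNPUL1. Between A0 and CHO-S the phase change differed for PRPF38B (-1.76) and between A1 and CHO-S for SF3A2 (0.59), both with CHO-S stationary culture 1 in the test. Of all genes 8.94% passed for A1 with A0 (17.3% of those above 30 CPM), 10.3% for A0 with CHO-S and 7.6% for A1 with CHO-S. For A1 with A0 the count was 0 with all 6 groups in 1 edgeR fit, and 3 to 20 with 1 culture left out.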

How the results depend on the processing

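The 75 log2 fold changes followed here were named by rank among called changes, so all were past the threshold at the start. In all alternatives 45 kept the call and the direction. Values that did not pass were not followed, so a gained call could not show. Over 1097 values none reversed and 126 lost the call. The share of all genes that passed is given above only for the main fit, with and without CHO-S stationary culture 1. Counts under other settings therefore have no such share beside them. Counts of genes past the threshold moved by over 1.5 times as follows, and the cause was not tested. With all 6 groups in 1 fit, which includes CHO-S stationary culture 1, they were 5 (A1 against A0, exponential), 6 (the same, stationary), 34 (A0 against CHO-S, stationary), 23 (A1 against CHO-S, exponential), 16 (A1 across phases) and 32 (CHO-S across phases); the interactions gave 0 for A1 with A0 (edgeR; 11 at an unadjusted p under 0.05, and the DESeq2 count was within 1.5 times the main one), 8 for A0 with CHO-S and 0 for A1 with CHO-S (12 unadjusted). DESeq2 gave 23 for CHO-S across phases and 6 and 4 for the CHO-S interactions of A0 and A1. For A0 with CHO-S, RLE, total counts and the other filter each gave 2 and plain A0 libraries 4; for A1 with CHO-S, total counts and the other filter each gave 2. Without CHO-S stationary culture 1, DESeq2, the replicate block and RLE gave 35, 42 and 37 for A0 against CHO-S at stationary phase, 40, 42 and 42 for A1, 55, 56 and 56 for CHO-S across phases, 7, 8 and 6 for the interaction of A0 and 25, 30 and 30 for that of A1. Leaving out 1 culture gave 5 to 32 and 12 to 28 for A1 against A0 at exponential and stationary phase, 24 to 36 and 14 to 37 for A0 against CHO-S, 46 to 50 and 8 to 43 for A1 against CHO-S, and 51 to 54, 46 to 49 and 0 to 56 across phases in A0, A1 and CHO-S. It gave 3 to 20, 0 to 10 and 0 to 30 for the interactions of A1 with A0, A0 with CHO-S and A1 with CHO-S. Where it gave 0, at least 4 genes had an unadjusted p under 0.05. From plain A0 libraries 25 genes differed between A1 and A0 at exponential phase, 11 higher and 14 lower.

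Except in A0 across phases, same-numbered cultures did not deviate together (r between -0.13 and 0.11), so the numbers are only names. With the replicate block 32 genes passed for A1 against A0 (exponential) and 25 (stationary), 39 and 15 for A0 against CHO-S, 49 and 16 for A1 against CHO-S, 55, 52 and 1 across phases in A0, A1 and CHO-S, and 18, 4 and 0 for the interactions, the last with 7 at an unadjusted p under 0.05. With each culture as a block these were 20, 4 and 0. The block changed no other call of A0 across phases than that of PRPF18. Number 4 occurs in A0 only. In comparisons of A0 with another line at 1 phase, the replicate block therefore fits A0 culture 4 by itself. That takes the culture out of the contrast, so these counts are no separate check of pairing. For A1 against A0 at exponential phase, 32 genes also passed with A0 culture 4 left out.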
